A study of Populus tremula x Populus alba with 3 samples.

Results

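In apical buds of poplar with reduced PtaDML10, 37 genes carried CG hypermethylation inside the gene body with no exon feature listed beside it. They were chosen by where the authors' hypermethylated regions fell, among genes that the authors had already listed as differentially expressed. The rule used neither the sign nor the size of the logFC, but it was set with earlier results of these data known. Taken were genes listed in the authors' deposited tables for the transcribed region in the CG context, absent from the CHG and CHH lists and from all 3 promoter lists, with neither coding sequence nor 5' or 3' UTR given for the region. The 6 tables hold 577 genes in all, 388 of them in the CG list of the transcribed region, and 258 of those are CG-only with no promoter entry. The 37 genes were therefore 14.3% of the CG-only gene bodies (exact Clopper-Pearson 95% interval 10.3 to 19.2, counting error only).

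Plants methylate cytosines in CG, CHG and CHH contexts, where H is A, C or T. Methylation of CG alone inside transcribed genes is known as gene body methylation and is found mostly in moderately expressed genes, whereas methylation of all contexts marks transposons and silenced sequence. Introns can hold transposon copies, and in Arabidopsis proteins are known that let polymerase read through methylated introns. Glycosylases of the DEMETER-like family, to which DML10 belongs, remove 5-methylcytosine, so a knockdown is expected to leave some sites more methylated.

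The knockdown lines KD2 and KD5 carried an RNA interference construct against PtaDML10 and were compared with wild type (WT), all in INRA clone 717-1B4 of the hybrid Populus tremula x Populus alba, a poplar often used for transformation. Plants spent 4 weeks in long days (16 h light, 21 °C), 12 weeks in short days (8 h light, 19 °C) and 4 weeks in short days at 4 °C, and 15 apical buds from 15 plants per genotype were pooled before visible bud break. Each genotype gave 1 whole genome bisulfite library, so no replicate stands behind a difference of a knockdown from WT. No value per library was used here, sequencing depth is unknown, and the libraries behind the expression values are not among the 3 samples.

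Each listed gene has 1 expression logFC for both lines together, an FDR and a logCPM, a log of library-scaled counts (CPM) that is not corrected for gene length. The log base is read here as 2 from the column names. The tables do not say whether a positive logFC means more or less RNA in the knockdowns, so genes are described by the sign. Every listed gene passed the authors' thresholds for both hypermethylation and expression (all FDR values lie below 0.05), so the shares below are shares of listed genes, not of all poplar genes. The tables give no size of the methylation gain in transcribed regions. With pooled buds, a change in cell makeup and a change in RNA per cell cannot be told apart, and no marker level per library was used with which to check the tissue label.

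The label of the set was read from features alone. The features beside a gene were taken as those a region touches, since coding segment 1 was missing for 203 of the 271 CG genes that had any coding segment listed. By that reading the regions of the 37 genes lie between exons, in introns, although the tables hold no intron column and no region coordinates. Of the 388 CG genes 53 had no exon feature (13.7%, 10.4 to 17.5), of the 178 CHG genes 36 (20.2%, 14.6 to 26.9) and of the 123 CHH genes 21 (17.1%, 10.9 to 24.9). The 37 genes are these 53 less 16, of which 15 were also in the CHG or CHH list and 1 was left out by its promoter entry alone.

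More of the 37 genes had a negative than a positive logFC, and the values were moderate. A positive logFC in the authors' deposited tables was given for 15 of the 37 genes (40.5%, 24.8 to 57.9) and a negative one for 22. Over all 577 listed genes a positive logFC made up 49%, inside the interval of the 37 genes, and a negative one 51%. The CG-only genes with coding sequence and no UTR had 56 positive of 105 (53.3%, 43.3 to 63.1), and those with a UTR 63 of 116 (54.3%, 44.8 to 63.6). These intervals overlap that of the 37 genes. Positive values ran from 0.74 to 1.40 with a median of 0.99, and negative values from -1.58 to -0.63 with a median of -0.85, in the authors' deposited tables.

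**Figure D1:**
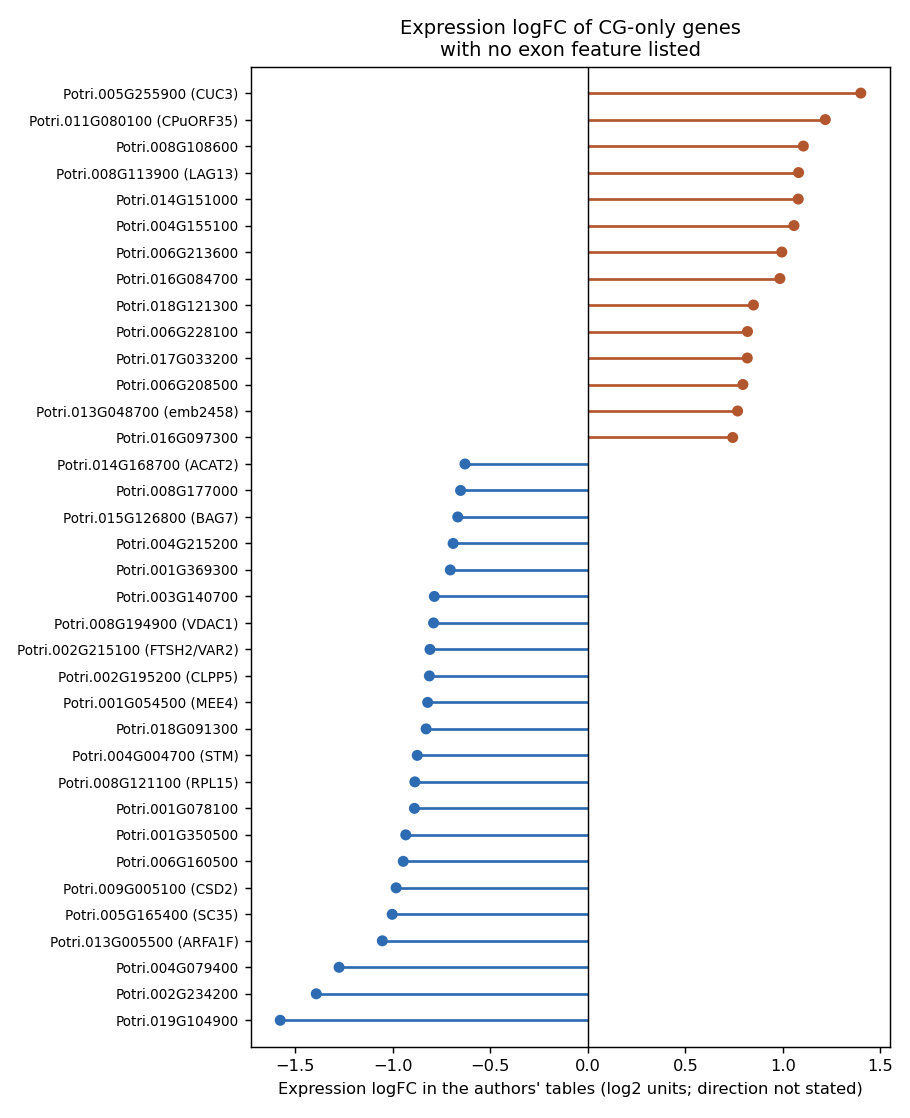
Expression logFC (horizontal axis, log2 units) of 36 of the 37 genes in the authors' deposited tables, 1 point per gene, with the Arabidopsis name where the tables give one. The positive genes run from 0.74 to 1.40 and the 22 negative genes from -1.58 to -0.63, with no gene between.

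The size of the logFC was not apart from the background. An absolute logFC of at least 1 was listed for 12 of the 37 genes (32.4%, 18.0 to 49.8), and for 47.8% of all listed genes, a share inside that interval. Of these 12, 7 were at 1 or above (58.3%) and 5 at -1 or below. Among all listed genes with an absolute logFC of at least 1, 65.6% were at 1 or above. As shares of all 577 listed genes, 31.4% were at 1 or above and 16.5% at -1 or below. The median absolute logFC was 0.89 over the 37 genes and 0.99 over all 577. Ranked by absolute logFC among the 577 genes, the highest of the 37 stood at place 69. An FDR below 0.005 was listed for 12 genes and for 31.7% of all listed genes. Of those, 11 of the 12 were negative in the set, and 118 of 183 (64.5%) over all listed genes.

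The sign followed logCPM among the 37 genes, as it did over the other listed genes. Their median logCPM was 5.29 (exact order-statistic 95% interval 4.97 to 6.08), against 4.81 over all 577 genes (4.54 to 4.89). It was 4.61 for the 15 positive and 6.04 for the 22 negative genes, against 3.96 and 5.76 over all listed genes. In the highest logCPM quintile of all listed genes 1 of 10 members was positive, beside 7 of 106 other genes (6.60%). In the next quintile 4 of 12 were positive, beside 35 of 103 others (34.0%). The 3 lower quintiles, from the lowest up, held 3, 5 and 7 of the 37 genes, of which 2, 4 and 4 were positive. Of the others, 69.9%, 76.4% and 58.3% were positive there. Applying the others' share in each quintile to these numbers gives 14.7 positive genes, and 15 were listed.

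**Figure D2:**
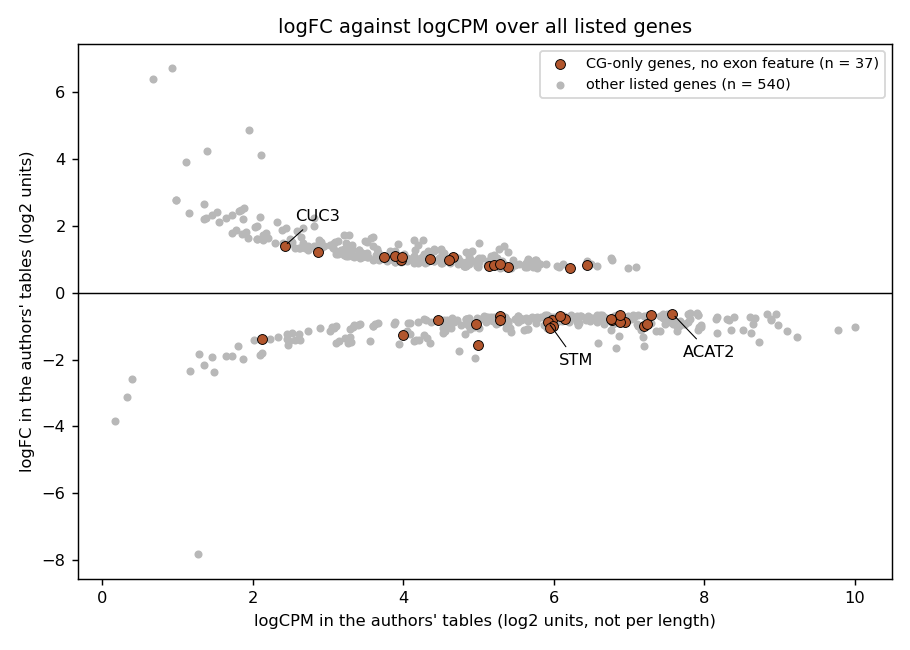
logFC (vertical axis) against logCPM (horizontal axis), both in log2 units from the authors' deposited tables, for the 37 genes (dark points) and the other 540 listed genes (grey points). The 37 genes lie within the 2 bands formed by the other genes, from logCPM 2.13 to 7.58, and none is among the listed genes with the most extreme logFC.

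**Figure D3:**
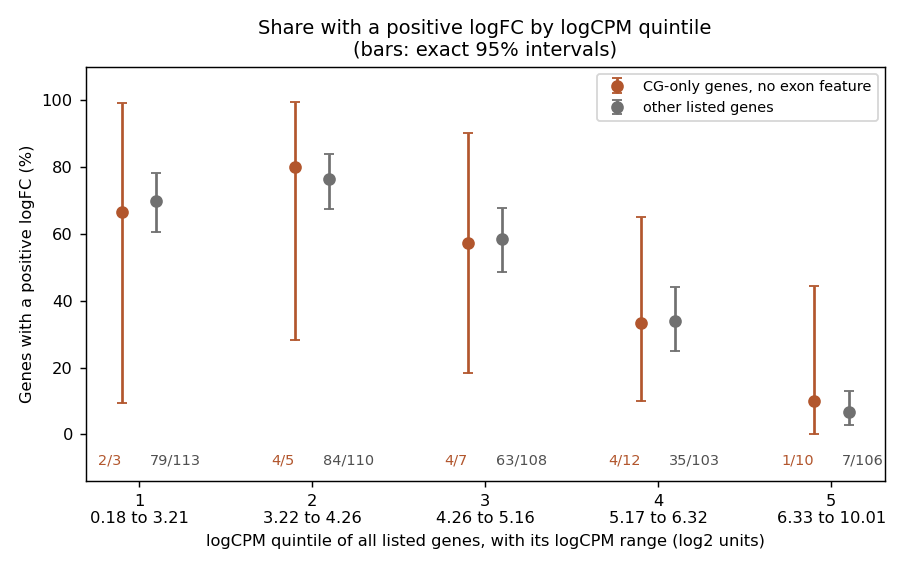
Share of genes with a positive logFC in each logCPM quintile of all listed genes, for the 37 genes (left point of each pair) and the other listed genes (right point), with exact 95% intervals and the counts printed below. The 37 genes go down from 4 of 5 in the second quintile to 1 of 10 in the fifth, beside 76.4% and 6.60% of the other genes.

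2 regulators of the shoot meristem were in the set, with opposite signs. SHOOT MERISTEMLESS (STM, Potri.004G004700, chromosome 4, 304396 to 308756), a KNOX homeobox factor that keeps meristem cells undifferentiated in Arabidopsis, had a logFC of -0.87 and a logCPM of 5.92 in the authors' deposited tables (FDR 0.00337). CUP-SHAPED COTYLEDON 3 (CUC3, Potri.005G255900, chromosome 5, 25593525 to 25596124), a NAC factor that sets organ boundaries in Arabidopsis, had the most positive logFC of the 37 genes in the authors' deposited tables, 1.40 (FDR 0.0396). CUC3 also had the second lowest logCPM of the set, 2.42, so its value rests on fewer reads than that of STM. Both have a single listed transcript, and neither has a coding segment or UTR listed in the CG table.

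The fixed transcription factor words found STM and, by its zinc finger, Potri.016G097300, annotated as an N-acyltransferase with a PHD-type finger, a fold that often reads histone tails. That gene had a logFC of 0.74, the smallest positive value of the set, in the authors' deposited tables. Over all listed genes the list had 17 positive and 13 negative of 30, a median logFC of 0.87, against a median of -0.07 over these 2 genes. With both signs present and no value near 0, these medians say little. With CUC3, whose annotation spells the domain differently and was added after its value was seen, 2 of 3 genes were positive.

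Genes of RNA binding and processing had both signs. SC35 (Potri.005G165400, chromosome 5, 17196233 to 17199885), a serine/arginine-rich splicing factor, was listed at a logFC of -1.002 by the authors' deposited tables (FDR 1.46e-04). An RNA-binding protein-related gene, Potri.006G160500 (chromosome 6, 15172921 to 15178399), had -0.95 in the authors' deposited tables (FDR 4.00e-04). Both were among the genes with the most reads, with a logCPM of 7.20 and 7.24, and SC35 had 9 listed transcripts, the most of the 37 genes.

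Further RNA-binding genes had positive values. Potri.016G084700 had 0.98 and Potri.006G208500 had 0.80 in the authors' deposited tables, each annotated with an RNA recognition motif, the common fold that binds single-stranded RNA and is also found in SC35-type splicing factors. The fixed words matched only the 2 negative genes, a median logFC of -0.97, and over all listed genes 2 positive and 21 negative, a median of -0.80. With the spelling used for these genes added after their values were seen, the split was 2 to 2 here and 6 positive to 22 negative over all listed genes. Potri.006G208500 falls outside the rule for naming genes and was picked for its annotation.

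For 7 genes picked by hand from the set, the Arabidopsis counterpart is known to work in plastids or mitochondria. Other genes of the set may belong with them. The 7 were put together after the values were seen, with no count of such genes over all listed genes. No direction is therefore read from 6 negative and 1 positive. Plastid ribosomal protein L15 (RPL15, Potri.008G121100) was listed at -0.89 in the authors' deposited tables (FDR 0.00140). CLPP5 (Potri.002G195200), a subunit of the plastid Clp protease, had -0.81 in the authors' deposited tables. FTSH2/VAR2 (Potri.002G215100), a thylakoid protease that clears damaged photosystem II protein, had -0.81 in the authors' deposited tables.

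The superoxide dismutase CSD2 (Potri.009G005100), a plastid enzyme that detoxifies superoxide, had -0.98 in the authors' deposited tables (FDR 5.12e-04). On the mitochondrial side, the porin VDAC1 (Potri.008G194900) had -0.79 in the authors' deposited tables. The GRIM-19 gene MEE4 (Potri.001G054500), of a family of respiratory complex I subunits, had -0.82 in the authors' deposited tables and falls outside the naming rule. Against these stood the second FtsH family gene, emb2458 (Potri.013G048700), at 0.77 in the authors' deposited tables (FDR 0.0418). The logCPM of these genes lay between 4.46 and 6.88.

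In protein turnover and translation the signs were mixed. The protein turnover words matched CLPP5, FTSH2/VAR2, emb2458 and, by its finger domain, Potri.016G097300, 2 positive and 2 negative, beside 15 positive and 13 negative over all listed genes. The median logFC was -0.03 over these 4 genes and 0.76 over all listed genes of the list. With both signs present and no value near 0, these medians say little, and the counts were alike. A gene of the Ntn hydrolase superfamily, which includes the catalytic subunits of the proteasome (Potri.008G177000), had -0.65 in the authors' deposited tables and was picked for its annotation. The translation words matched RPL15 and Potri.006G228100, a SUI1 family gene related to initiation factors that help choose the start codon. Potri.006G228100 had 0.82 in the authors' deposited tables, whereas 38 of the 42 listed genes of this list were negative. The median logFC was -0.03 over both members, a midpoint of opposite signs, and -0.85 over the 42 genes.

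CPuORF35 (Potri.011G080100, chromosome 11, 7933773 to 7934707) was the shortest gene of the set, with a span of 935 bases. It is annotated as a conserved upstream open reading frame, a type of short peptide read from the leader of an mRNA that can limit translation of the main protein. It stood at 1.22 in the authors' deposited tables, with the highest FDR of the 37 genes, 0.0468.

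Genes of membranes, membrane traffic and lipids had both signs. ARFA1F (Potri.013G005500, chromosome 13, 356889 to 364936), a small GTPase that recruits vesicle coats, was listed at -1.05 in the authors' deposited tables (FDR 1.65e-04). Potri.014G151000, of the Got1/Sft2-like family of Golgi vesicle transport, had 1.08 in the authors' deposited tables. LAG13 (Potri.008G113900), a ceramide synthase homologue of sphingolipid synthesis, had 1.08 in the authors' deposited tables and was the only positive gene with an FDR below 0.005 (0.00394).

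ACAT2 (Potri.014G168700), an acetoacetyl-CoA thiolase of the mevalonate pathway to sterols, had the smallest absolute logFC of the set, -0.63, and its highest logCPM, 7.58, in the authors' deposited tables. A leucine-rich repeat kinase gene, Potri.004G155100, had 1.06 in the authors' deposited tables. It was the only gene of the set in the kinase list (12 positive and 5 negative over all listed genes) and in the disease resistance and leucine-rich repeat list (10 and 3).

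The redox list held 2 genes of the set. Potri.002G234200, of the NAD(P)-linked oxidoreductase family, had a logFC of -1.39 with the lowest logCPM of the set, 2.13, in the authors' deposited tables. With CSD2 it made up the redox list, 0 positive and 2 negative here with a median logFC of -1.19, and 3 positive and 9 negative over all listed genes with a median of -0.85. Some other genes are given by annotation alone, with no list behind them. BAG7 (Potri.015G126800), a co-chaperone of the endoplasmic reticulum in Arabidopsis, had -0.67 in the authors' deposited tables. Potri.001G350500, of the heavy metal transport and detoxification family, had -0.93 in the authors' deposited tables. Potri.001G369300, a sucrase/ferredoxin-like gene picked for its annotation, had -0.70 in the authors' deposited tables.

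At the negative end of the set stood a gene with no description. Potri.019G104900 (chromosome 19, 13342468 to 13345717) had a logFC of -1.58 and the lowest FDR of the 37 genes, 1.83e-08, in the authors' deposited tables. In all, 8 of the 37 genes had no description that was used here, against 103 of the 577. Of these, Potri.004G079400 had -1.27, and Potri.001G078100, the only gene of the set without an Arabidopsis match, had -0.89 in the authors' deposited tables. Potri.018G091300 had -0.83 and Potri.004G215200 had -0.69 in the authors' deposited tables. Potri.008G108600 had 1.10 and Potri.017G033200 had 0.82 in the authors' deposited tables. Counting Potri.003G140700, which is described below, 6 of the 8 were negative, beside 22 of the 37 genes. The signs of the 103 genes were not counted, so no direction is read from this.

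Other positive genes were a tetratricopeptide repeat gene (Potri.006G213600, 0.99) and one annotated as an adenylate cyclase (Potri.018G121300, 0.85), in the authors' deposited tables. All 16 listed pentatricopeptide and tetratricopeptide repeat genes were positive. VDAC1 was the only member of the transport list, which had 7 positive and 6 negative over all listed genes, and Potri.016G097300 the only one of the lipid list (9 and 6), matched by the letters of acyltransferase. The words for chromatin and silencing matched none of the 37 genes and 7 of all 577 listed genes. None of the 37 was matched either for membrane traffic and cytoskeleton (14 over all listed genes), cell cycle and repair (10) or cell wall (13). The same held for photoperiod and dormancy (1) and chloroplast (10), and the hormone words matched 0 listed genes. With so few matches, no absence is read from these counts. The traffic words missed ARFA1F and the Got1/Sft2-like gene, and the chloroplast words missed the plastid genes above, because of how the tables word them. In the same way, the lipid words missed LAG13 and ACAT2, and the chromatin words missed the PHD-type finger of Potri.016G097300.

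For 7 of the 37 genes, another listed poplar gene had the same Arabidopsis match, and in all 7 pairs both copies had the same sign. The SC35 copy Potri.002G095800 had -1.04, beside -1.002 for the SC35 gene of the set, in the authors' deposited tables. For VDAC1 the copy Potri.017G078200 had -0.64 beside -0.79, and for ARFA1F the copy Potri.002G191400 had -0.94 beside -1.05, in the authors' deposited tables. The widest gap was that of Potri.019G104900, -1.58, and its copy Potri.013G146000, -0.79, in the authors' deposited tables. Among the other listed genes 33 of 34 such pairs shared a sign, so this was common to listed copies.

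None of the 7 copies was listed in CG with no exon feature. The SC35, VDAC1 and Potri.003G140700 copies had a 3' UTR listed in CG, the VDAC1 copy being in the CHG list as well, and the copy of Potri.006G160500 a coding segment. The copy of Potri.019G104900 had both, the ARFA1F copy was listed in CHG and CHH only, with no exon feature in either, and the copy of Potri.016G084700 only for a CG promoter region. Potri.003G140700 itself had a logFC of -0.79, beside -0.73 for its copy Potri.001G090900, in the authors' deposited tables, and falls outside the naming rule. Reads of near-identical copies may have been divided between them in the authors' counting, which is not described in the sources used here, so values of such pairs are uncertain.

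The genes of the set were about as long as other CG-only genes with coding sequence, with overlapping intervals. Span, from gene start to gene end with introns included, had a median of 4361 bases over the 37 genes (exact order-statistic 95% interval 3653 to 5174). It was 4329 bases (3829 to 5113) over 103 genes with coding sequence and no UTR, and 3786 bases (3011 to 4556) over 104 genes with a UTR, each with a single gene in its row. The 3 longest genes of the set were all positive. They were emb2458 (14897 bases), Potri.017G033200 (14301 bases) and Potri.016G097300 (13238 bases). Above 7000 bases 5 of 9 genes were positive, beside 30 of 40 other CG-only genes (75%), and under 5000 bases 8 of 23, beside 56 of 126 (44.4%). The median span was 4361 bases for positive and 4353 bases for negative genes, against 4837 and 3691 bases over the other CG-only genes.

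**Figure D4:**
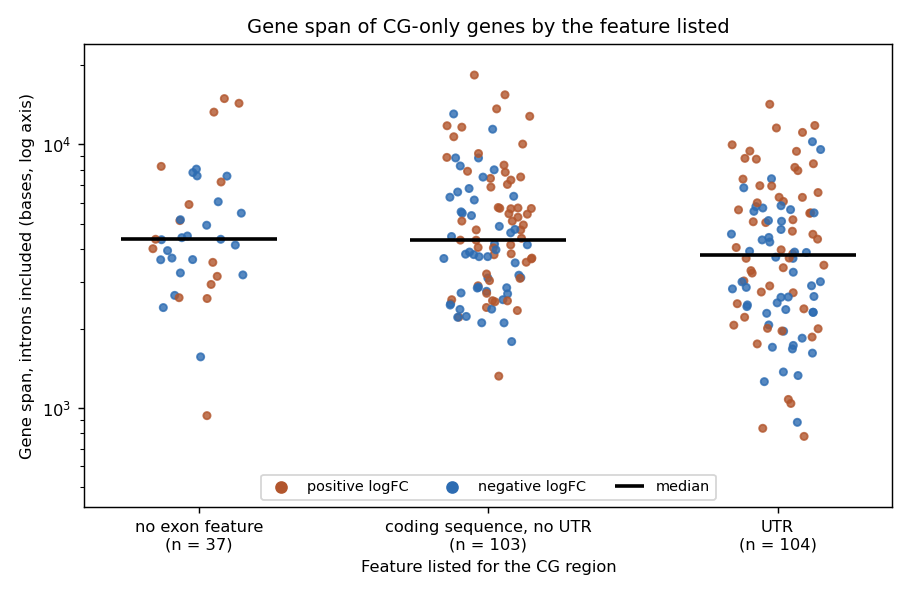
Gene span in bases (vertical log axis) of CG-only genes by the feature listed for the region, with 1 point per gene, coloured by the sign of the logFC, and the median as a line. The 37 genes with no exon feature (left) have a median of 4361 bases, within the spread of the genes with coding sequence (4329 bases) and with a UTR (3786 bases).

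Transcript models narrowed where the region could lie in some genes. A single transcript was listed for 13 of the 37 genes and 2 or more for 24. Among the other CG-only genes a single one was listed for 43 of 103 with coding sequence and no UTR. With a UTR it was 41 of 104. If 1 region touches every listed transcript and none of their exons, it must lie in the stretch that all of them span. That stretch was under 70% of the gene in 6 genes, the least so in Potri.003G140700 (69.2%). In ARFA1F it was 3266 of 8048 bases (40.6%), in Potri.001G350500 3665 of 7571 bases (48.4%), in Potri.008G177000 52.8% and in RPL15 1709 of 3195 bases (53.5%). In Potri.017G033200 it was 7822 of 14301 bases (54.7%), from 2854419 to 2862240 on chromosome 17. FTSH2/VAR2 was the only gene of the set without its longest transcript listed and the only one whose transcript numbers skip 1.

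The genes were spread over 16 chromosomes, with no close pair. Chromosomes 6 and 8 held 5 each, and chromosomes 1 and 4 held 4 each. On chromosome 6, 4 of 5 genes were positive, beside 21 of 33 over all genes of the CG list (63.6%). On chromosomes 1 and 2, a pairing not fixed beforehand, all 7 were negative, beside 32 of 70 (45.7%). On chromosome 16, 2 of 2 genes were positive, beside 11 of 12 over the CG list (91.7%). The nearest neighbours within the set, Potri.006G208500 and Potri.006G213600, were 323884 bases apart, both positive (0.80 and 0.99 in the authors' deposited tables). On the plus strand 5 of 17 genes were positive, beside 105 of 191 in the CG list (55.0%), and on the minus strand 10 of 20, beside 109 of 197 (55.3%). These splits are descriptions of few genes, with no test.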

How the data were processed

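The values were 6 tables of the authors' own comparisons, with no value per library. Reads were processed with Bismark and methylKit, per the submitters' processing notes. Their versions, the filters and the genome build were not given in the sources used here. Gene models carry a Phytozome tag, and coordinates are printed as deposited. Per the file headers, the authors deposited a logFC and logCPM, read as log2 values, and a p-value and FDR of expression. How these were computed is not stated.

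Each gene was counted once, over the distinct genes of all tables. Shares have exact Clopper-Pearson 95% intervals and medians exact order-statistic intervals, checked on simulated data; both cover counting error only. No test between gene sets was made. Members and lists were chosen with earlier results of these data known. A gene joined any of 17 lists by words in its annotation or Arabidopsis name. Named genes were the 12 most positive and 12 most negative by logFC, the 3 highest and 3 lowest by logCPM, the 3 longest and 3 shortest, and up to 4 per list, 32 of 37 in all; the other 5 are marked. Of the genes so picked, 1 is not reported here. Python 3.11.15, pandas 2.3.3 and SciPy 1.17.1 were used.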

Additional observations from a re-analysis of the deposited data

How the results depend on the processing

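The number of genes was 38 without the promoter condition. It was 37 if 1 exon-free row sufficed, which could not differ because each gene has 1 row in the CG list. The share with a positive logFC depended on the threshold: it was 58.3% over 12 genes with an absolute logFC of at least 1 and 8.33% over 12 genes with an FDR below 0.005, against 40.5%. Over all listed genes the same thresholds gave 65.6% and 35.5%, against 49.0%. The positive genes had the larger median absolute logFC (0.99 against 0.85 for the negative genes) and the higher median FDR (0.0231 against 0.00563). The share with a positive logFC was 42.1% without the promoter condition, an alternative chosen after seeing the data. Asking for a logCPM of at least 1 removed none of the 37 genes, whose lowest was 2.13. The share therefore stayed at 40.5% by construction. Means in place of medians gave a logFC of -0.14 against -0.69, an absolute logFC of 0.94 and a logCPM of 5.38. As no listed gene lies near 0, a median of signed values over both directions says little. The median span of 4361 bases became 3565 over the 13 genes with 1 transcript and 5285 as a mean. Of the 14 genes in any list, 3 had an absolute logFC of at least 1 (1 positive, 2 negative), and 17 were in a list with the 2 added spellings. No paired analysis was possible because each genotype has 1 library and the tables hold no value per library. Unknown depth leaves the precision of each region unstated.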
